A study of Drosophila melanogaster with 33 samples.

Results

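RNA editing levels in polyadenylated head mRNA of Drosophila melanogaster were compared between the laboratory stocks yw and Canton S, site by site. The sites are those rows of the deposited editing table that carry a numeric level in both mRNA columns, which holds for 257 of 1350 listed sites, in 128 of 395 gene entries. All 257 are placed in exons by the table, and 0 sites carried a level in 1 mRNA column only. The yw stock carries mutations in the body colour gene yellow and the eye colour gene white, and Canton S is a wild-type stock. The yw mRNA level is 1 pooled value from 2 libraries, taken at ZT2 and ZT14, where ZT counts hours from lights on. The Canton S mRNA level is 1 pooled value from 12 libraries, taken at 6 times (ZT0, 4, 8, 12, 16 and 20), each time with 1 paired-end and 1 single-end library. Both stocks were entrained to cycles of 12 h light and 12 h dark, and the flies were 3 to 4 days old per the labels. Nascent RNA of yw heads, the RNA still bound to chromatin during transcription, came from 12 libraries pooled as 2 replicate sets of 6, and serves here as a reference only.

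Editing of this kind is carried out by ADAR, an enzyme that deaminates adenosine to inosine in double-stranded RNA. Ribosomes and sequencing enzymes read inosine as guanosine, so an exonic edit can change the encoded amino acid and shows up as a mismatch in the reads. The paired stretch is often formed between an exon and complementary sequence in a nearby intron, and sites that share such a structure lie close together. In flies the known targets include many transcripts of neuronal ion channels, neurotransmitter receptors and proteins of synaptic vesicle release.

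An editing level is the share of reads at a site that carry the edited base, given here in percent, and a difference between levels is given in percentage points. Each mRNA level pools its libraries, so neither stock has a replicate error at any site and no difference between the stocks was tested. Stock also cannot be told apart from the number of libraries, the sampling times and the read layout. The only measure of replicate spread is the gap between the nascent sets, and the number of reads behind an RNA level is unknown. Levels listed at 100% or at a low percent are therefore given without an interval. A level is measured in RNA of the whole head, so a different level within cells and a different mix of cells that contribute the transcript cannot be told apart. Genomic DNA of yw flies covered the sites with 15 to 108 reads, with a median of 42. In ADAR0 males, which lack the enzyme, 215 of the 257 sites are listed at 0 and the highest level was 13%, at a site of the calcium channel gene Ca-alpha1T.

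The yw and Canton S pools ordered the sites alike, and most sites read somewhat higher in yw. The median site stood at 58% in the yw pool, with quartiles at 40% and 78%. In the Canton S pool it stood at 52%, with quartiles at 35% and 73%. The median level in nascent RNA of yw was 48% at these sites. Of the 257 sites, 162 (63.0%) were higher in yw, 84 were lower in yw and 11 had the same level. The median difference, yw minus Canton S, was 4 points, and single differences ran between -40 and 58 points. Across the 257 sites, Pearson's r between the pools was 0.841 and Spearman's rho was 0.839. Sites of a gene share transcripts and all sites share the same libraries, so these values describe the table and carry no p-value.

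The yw and Canton S pools lay further apart than the nascent replicate sets did. Regardless of direction, the median site differed by 7 points from yw to Canton S and by 4 points from set 1 to set 2. Across sites the standard deviation of the yw minus Canton S difference was 12.9 points. For set 1 minus set 2 it was 6.17 points, with an r of 0.957 over the same sites. The mRNA pools agreed within 5 points at 95 sites (37.0%), and the nascent sets did so at 155 sites (60.3%). A lean to one side was also present between the nascent sets: set 1 exceeded set 2 at 181 sites, set 2 exceeded set 1 at 57, the sets were equal at 19, and the median gap was 3 points. A median shift of about the size seen between the stocks was thus also present between replicate pools of a single stock. The spread around it was wider between the mRNA pools. Those pools hold 2 and 12 libraries taken at different times, while the nascent sets hold 6 libraries each, taken at the same times. The part of this imbalance, and of the kind of RNA, in the wider spread was not tested.

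A difference over 10 points was taken as large. In yw mRNA 72 sites were higher than in Canton S mRNA by that margin, which is 28.0% of the sites, and 16 sites (6.23%) were lower. These sites lie in 53 and 15 gene entries. Between the nascent sets, 31 sites (12.1%) were over 10 points higher in set 1 and 5 sites (1.95%) were lower. Just inside the margin, 4 sites were 11 points higher in yw and 1 was 11 points lower. Just outside it, 6 sites were 10 points higher in yw and 2 were 10 points lower. Beyond 20 points, 22 sites were higher in yw and 5 lower, against 1 site that far apart between the nascent sets, in the RNA-binding protein gene ssx. None of the 27 sites over 20 points apart between the stocks had nascent sets more than 12 points apart.

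**Figure D1:**
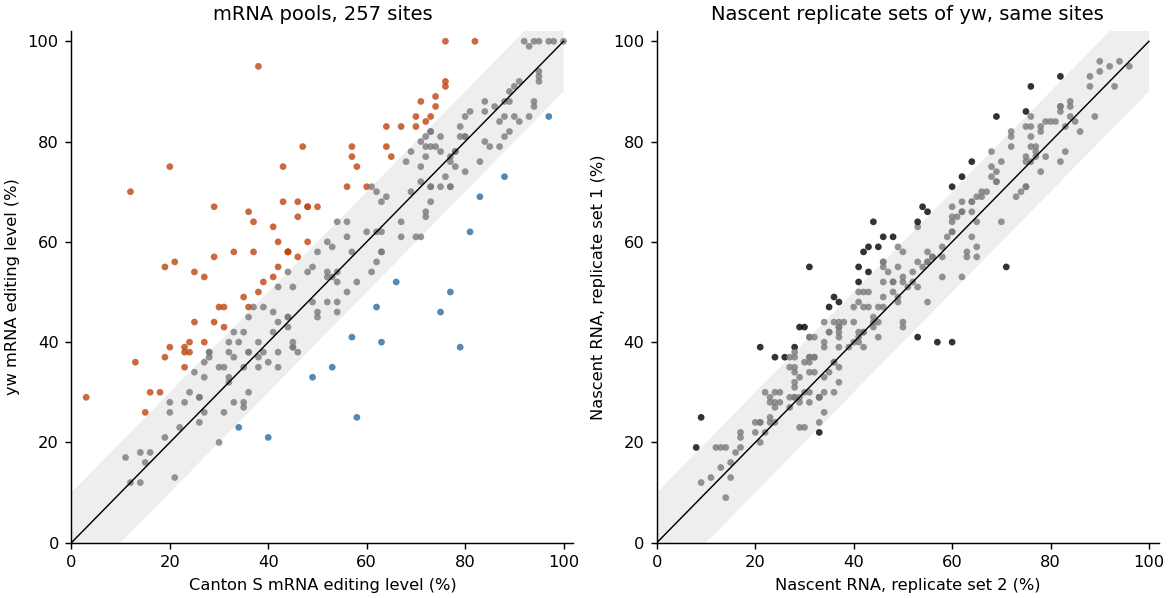
Editing level (%) of each of the 257 sites in yw mRNA against Canton S mRNA (left) and in nascent set 1 against nascent set 2 of yw (right), with the line of equal levels and a grey band of 10 points to either side. On the left 72 sites lie above the band and 16 below it, and on the right 31 lie above and 5 below.

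The median difference varied with the level of the site. Sites were divided by their nascent level in yw, which enters neither mRNA pool. Among 24 sites under 25%, the yw pool had a median of 28.5% and the Canton S pool one of 20.5%, and 18 sites were higher in yw. Among 112 sites at 25% to under 50%, the medians were 44.5% in yw and 38% in Canton S, and 38 sites were over 10 points higher in yw against 7 lower. For 76 sites at 50% to under 75%, the medians were 71% in yw and 70% in Canton S. These medians of levels lie 1 point apart although the median of the site differences was 4.5 points. At the 45 sites edited to 75% or more there was no lean, with medians of 85% in yw and 87% in Canton S, 22 sites higher, 21 lower and a median difference of 0 points. The standard deviation of the difference was 8.27 points in this top group and 14.3 points in the lowest group. A single site, in SNF4Agamma, carries much of the lowest group's value: without it, a step chosen after seeing the data, the lowest group had 9.89 points. The nascent sets gave 4.92 points in the top group and 4.20 points in the lowest.

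**Figure D2:**
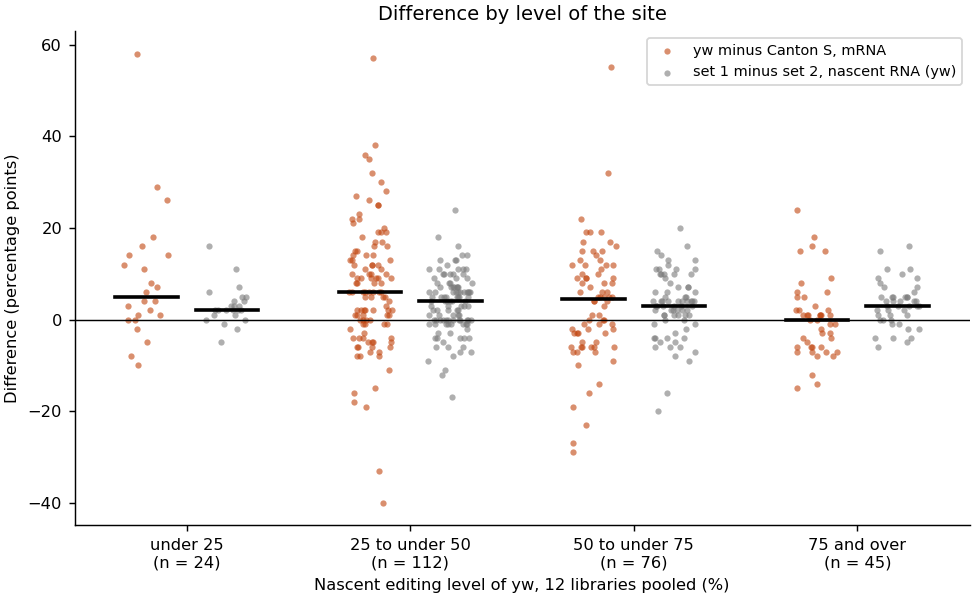
Difference in editing level (percentage points) at each site, yw minus Canton S in mRNA and set 1 minus set 2 in nascent RNA, in 4 groups of nascent level, with horizontal bars at the medians. The mRNA median lies at 5, 6, 4.5 and 0 points from the lowest to the highest group.

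Full editing was listed more often in yw. In yw mRNA 8 sites stood at 100%, against 1 in Canton S mRNA, although 18 sites reached 90% in each pool. The yw level pools 2 libraries and the Canton S level 12, at unknown depth. The part of this in the counts at 100% was not tested. The site at 100% in both pools is in Ca-alpha1D, which encodes the pore subunit of an L-type voltage-gated calcium channel (chromosome 2L, position 16174138). Its neighbours at positions 16174153 and 16174194 had 100% in yw against 97% and 95% in Canton S, and the one at 16174152 had 92% in yw and 95% in Canton S. Sites of an exchanger gene and of a gene of the sodium channel family were also among the highest in yw. The sodium/calcium, potassium exchanger gene Nckx30C had 100% in yw and 98% in Canton S (2L, 9733349). NaCP60E, of the sodium channel family, had 100% in yw and 82% in Canton S (2R, 20802381). The remaining sites at 100% in yw had 94% in Canton S in nAcRalpha-34E (2L, 14089246), 76% in the sodium leak channel gene na (X, 14166125) and 92% in pan, the Wnt pathway transcription factor (4, 120807). Among the highest sites of Canton S, the ryanodine receptor gene Rya-r44F, whose product releases calcium from internal stores, had 85% in yw and 97% in Canton S (2R, 4771211). At 95% in Canton S were also a site of Shab (93% in yw) and one of Syn, the vesicle protein synapsin (94% in yw). Positions are those of the deposited table, whose build is dm3 per the submitters' processing notes, and whether they count from 0 or from 1 is not stated.

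At the low end, 7 sites were under 20% in yw and 15 in Canton S. The lowest Canton S level of all was 3%, at a site of NKAIN (2R, 20770274), whose vertebrate relatives bind the sodium pump. The same site had 29% in yw mRNA, and the nascent sets of yw had 25% and 23%, so here yw mRNA and yw nascent RNA lay within 6 points. The 5 lowest sites of Canton S were not alike. SNF4Agamma had 70% in yw and 12% in Canton S, and qvr had 36% in yw and 13% in Canton S, so the low Canton S level of these sites had no counterpart in yw mRNA. The other low sites lay closer together: CG10077, which encodes a DEAD-box RNA helicase, had 12% in each stock at its lowest site (3L, 6942780), and CG33205 had 17% in yw and 11% in Canton S (3L, 9826584). Equal mid-range levels also occurred. A site of pyd, which encodes a junctional scaffold of the ZO-1 family, had 54% in each stock (3R, 4662906), with 50% and 48% in the nascent sets. A site of CG1090 had 53% in each stock (3R, 191196), with nascent levels of 34% and 31%, well under both.

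The 12 sites with the greatest yw excess were 27 to 58 points higher in yw. The furthest apart was in SNF4Agamma (3R, 17026852), the gamma subunit of the energy sensor AMP-activated kinase, with 70% in yw and 12% in Canton S. Its nascent sets had 22% and 17%, close to the Canton S level. CG30127, named Rgk1 in RefSeq, encodes a small GTPase of the RGK family and had 95% in yw and 38% in Canton S (2R, 15213814), with nascent levels of 41% and 53%. Pde1c, a calmodulin-dependent phosphodiesterase that breaks down cyclic nucleotides, had 75% in yw and 20% in Canton S (2L, 11830365). There the nascent sets, at 64% and 60%, lay near the yw mRNA level instead. The homeobox gene oc, which acts in head and photoreceptor development, was the other site of the 12 whose nascent levels, 47% and 40%, were nearer yw (55%) than Canton S (19%).

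The remaining 8 of these 12 sites had nascent levels nearer Canton S. The nicotinic receptor gene nAcRalpha-34E had 67% in yw and 29% in Canton S at position 14089221 of 2L, with nascent levels of 23% and 30%. The gene bt, which encodes the giant muscle protein projectin, had 56% in yw and 21% in Canton S, and unc-13, a vesicle priming factor, had 75% in yw and 43% in Canton S at position 909692 of chromosome 4. The apical polarity gene crb had 66% in yw and 36% in Canton S, with 42% in each nascent set. The sites were picked for their yw excess, so yw standing above Canton S is no finding here, and the nascent level lay above Canton S in bt and crb and below it in unc-13. At 4 of the 12 sites the nascent level was below both pools, where Canton S is the nearer pool by that choice. Mhcl, a myosin heavy chain-like gene, is among them, with 54% in yw, 25% in Canton S and nascent levels of 13% and 15%. CG8108 (Ciz1 in RefSeq), CG43707 and the sodium/calcium exchanger gene Calx complete the 12, with 79%, 64% and 57% in yw against 47%, 37% and 29% in Canton S.

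The 12 sites with the greatest Canton S excess were 15 to 40 points lower in yw. CG42540 had 39% in yw and 79% in Canton S (3L, 4590709), with 44% in each nascent set. Cpn, which encodes the photoreceptor calcium-binding protein calphotin, had 25% in yw and 58% in Canton S (3R, 7990069), with nascent levels of 41% and 31%. Vmat, the vesicular monoamine transporter, had 46% in yw and 75% in Canton S (2R, 9404780), with nascent levels of 57% and 65%. The muscarinic acetylcholine receptor gene mAcR-60C had 50% in yw and 77% in Canton S (2R, 20272335), with nascent levels of 53% and 62%. At 7 of these 12 sites the nascent level was nearer the yw pool, and at 1, in CG12858, it was below both. The other 7 sites lie in Sh, Rlip, stj, unc-13, SRm160, qvr and Unc-89, and their differences ran between -23 and -15 points. Over all 24 sites the nascent sets differed from each other by at most 12 points.

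**Figure D3:**
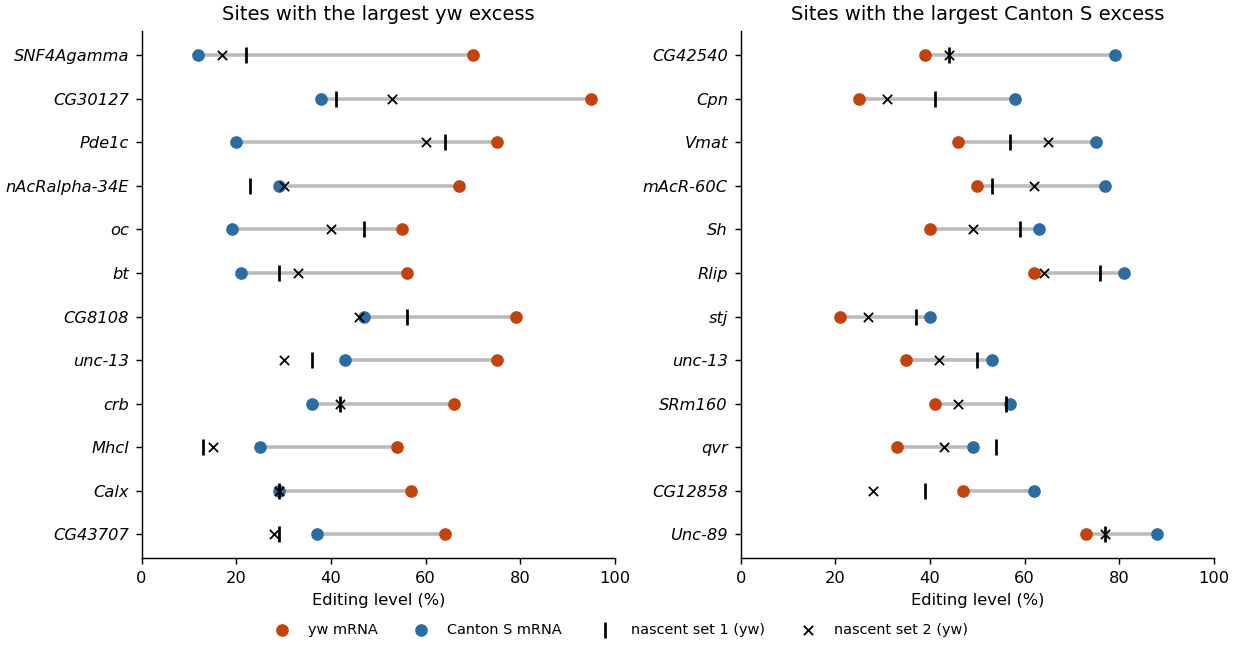
Editing level (%) at the 12 sites with the greatest yw excess (left) and the 12 with the greatest Canton S excess (right), in yw mRNA, Canton S mRNA and the nascent replicate sets of yw, with a grey bar joining the mRNA levels. On the left the nascent marks lie nearer Canton S than yw at every site apart from Pde1c and oc, and on the right most lie between the pools. The left sites were picked for yw standing above Canton S, so Canton S is the nearer pool wherever nascent RNA lies below both.

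The nascent RNA of yw comes from the same stock as the yw mRNA, but its levels were nearer to Canton S mRNA. Across the 257 sites, r with the pooled nascent level was 0.832 for yw mRNA and 0.908 for Canton S mRNA. The median size of the gap to the nascent level was 10 points for yw mRNA and 6 points for Canton S mRNA. The nascent level was nearer yw mRNA at 79 sites (30.7%), nearer Canton S mRNA at 161 and at the same distance at 17. It lay below both pools at 124 sites, between them at 90 and above both at 43. At the 72 sites over 10 points higher in yw, the nascent level was nearer yw at 11 (15.3%) and nearer Canton S at 60 (83.3%), with 1 at the same distance. These sites were picked for yw standing above Canton S. The nascent level lay below both pools at 33 of them, where Canton S is the nearer pool by that choice. It lay between the pools at 35 and above both at 4. Median levels at the 72 sites were 60% for yw mRNA, 41% for Canton S mRNA and 43% for nascent RNA. At the 16 sites over 10 points lower in yw, the nascent level was nearer yw at 8 and nearer Canton S at 8, with medians of 43.5% for yw mRNA, 64.5% for Canton S mRNA and 52.5% for nascent RNA. The yw mRNA and yw nascent libraries were pooled over different numbers of libraries, 2 and 12, and the part of that in these distances was not tested.

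Genes of electrical signalling held the most sites. Of 23 listed voltage-gated channel genes and their auxiliary subunits, 13 carried 63 of the sites, with 35 higher in yw, 25 lower and 3 equal. Their median difference was 1 point, against 4 points over all sites, and their median level was 70% in yw and 68% in Canton S. Over 10 points apart were 14 sites higher in yw (22.2%) and 4 lower (6.35%), against 28.0% and 6.23% of all sites. The direction was mixed between channels and within most of them.

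NaCP60E and para belong to the voltage-gated sodium channel family. NaCP60E held the most sites of any gene, 11, of which 7 were higher in yw, 3 lower and 1 equal, with a median difference of 12 points. Its sites at 2R positions 20800371, 20802225, 20802317 and 20802381 had 87%, 83%, 84% and 100% in yw against 74%, 67%, 72% and 82% in Canton S. The nascent sets lay between 60% and 77% at these 4 sites, below both mRNA pools at each. The sites lower in yw, 20798337, 20798346 and 20798632, had 35%, 46% and 45% in yw against 42%, 50% and 50% in Canton S. They lie among sites that were not lower: 20797921 and 20798584 had 38% and 58% in yw against 23% and 44% in Canton S, and 20798298 had 77% in each. The listed differences thus had both signs along the gene, though no site was over 10 points lower in yw. The main neuronal sodium channel gene para had 3 of 5 sites higher in yw, with 85% in yw and 70% in Canton S at its furthest apart (X, 16399583) and a median of 1 point.

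Voltage-gated calcium channels admit the calcium that triggers transmitter release. For cac, the pore subunit of the presynaptic channel, 5 of 7 sites were higher in yw, with a median of 9 points. The cac site at X position 11833797 had 37% in yw and 19% in Canton S, and that at 11848310 had 92% in yw and 76% in Canton S. A pair of cac sites were 6 points lower in yw. Ca-alpha1D had a median of 1.5 points over 6 sites, with 1 site 21 points higher (58% in yw, 37% in Canton S, at 16174116) and the others within 6 points. The T-type channel gene Ca-alpha1T had 3 of 4 sites lower in yw, by at most 8 points. The accessory subunit gene stj held both a site 14 points higher, with 38% in yw and 24% in Canton S, and a site 19 points lower, with 21% in yw and 40% in Canton S.

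Potassium channels repolarise neurons after an action potential. Sites in their genes lay on either side of 0. Sh, the founding Shaker channel, had 40% in yw and 63% in Canton S at X position 17824684, and 69% in yw and 83% in Canton S at 17824691, 7 bases away. Its other sites differed by 1 and 2 points. Shab, a delayed rectifier, had 3 of 7 sites higher in yw and 4 lower, all within 9 points, and a median of -2 points. The gene slo, the calcium-activated BK channel, had 3 of 4 sites higher, the largest by 12 points (35% in yw, 23% in Canton S). The gene qvr, known as sleepless and a modulator of Shaker channels, had 5 of 7 sites higher in yw, from 5 to 23 points, and 2 neighbouring sites lower, by 16 and 8 points. At its widest site qvr had 36% in yw and 13% in Canton S (2R, 7335492), with 29% and 23% in the nascent sets.

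**Figure D4:**
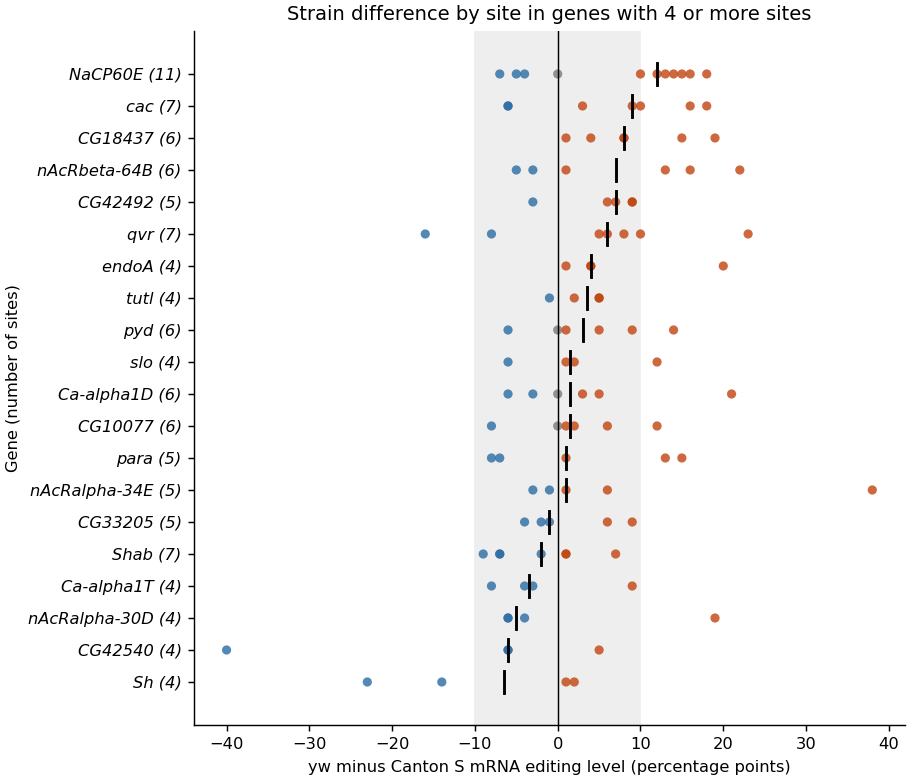
Difference in mRNA editing level, yw minus Canton S (percentage points), at each site of the 20 genes with 4 or more sites, ordered by their median (black bar), with a grey band of 10 points to either side of 0. Medians run between -6.5 points in Sh and 12 points in NaCP60E, and most genes have sites on both sides of 0.

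Among the receptor genes, nAcRalpha-34E and nAcRalpha-30D each had 1 site far apart among others close together. Of 18 listed ligand-gated receptor genes, 6 carried 22 sites, with 14 higher in yw, 8 lower and a median difference of 5.5 points. Over 10 points higher in yw were 7 sites (31.8%) and 0 were lower, near the 28.0% and 6.23% of all sites. In nAcRalpha-34E, 4 of 5 sites were within 6 points. The other was the site 38 points higher described above, which lies 17 bases from a site with 88% in yw and 89% in Canton S. In nAcRalpha-30D, 1 of 4 sites was higher, with 67% in yw and 48% in Canton S, and the others were 4 to 6 points lower. The beta subunit gene nAcRbeta-64B had 4 of 6 sites higher, the largest by 22 points (68% in yw, 46% in Canton S). The gene gfA, named nAChRalpha7 in RefSeq, had 91% and 53% in yw against 76% and 27% in Canton S at its sites. Rdl, the GABA-gated chloride channel, had differences of 6, -7 and 10 points, all within the margin.

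Proteins of synaptic vesicle release and recycling dock, fuse and retrieve the vesicles that hold transmitter. Of 35 listed genes, 11 carried 20 sites, with 14 higher in yw, 6 lower, a median difference of 1.5 points and medians of 49.5% in yw and 47% in Canton S. Over 10 points apart were 2 sites higher and 1 lower in yw, against 28.0% and 6.23% of all sites, and whether the list differs from other genes was not tested. The gene endoA, encoding the endophilin that shapes vesicle membranes during endocytosis, was higher in yw at all 4 sites, by 1 to 20 points, with 77% in yw and 57% in Canton S at 3R position 14733397. Syt1, the calcium sensor of release, had 76%, 45% and 43% in yw against 83%, 44% and 44% in Canton S. The priming factor gene unc-13 held a site with 75% in yw and 43% in Canton S and, 14683 bases away, one with 35% in yw and 53% in Canton S. The difference thus had opposite signs within the gene, and its remaining site had 23% in yw and 22% in Canton S.

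Sites of ion pump and exchanger genes were mostly higher in yw, though there were few. Of 16 listed pump and exchanger genes, 4 carried 8 sites, with a median difference of 10 points. In yw 7 were higher (87.5%, against 63.0% of all sites) and 1 was lower. Over 10 points higher were 4 of the 8 (50%) and 0 were lower, against 28.0% and 6.23% of all sites. Of these 4 higher sites, 3 are sites of Calx, and whether the list differs from other genes was not tested. Calx, which moves calcium out of cells in exchange for sodium, had 79%, 67% and 57% in yw against 57%, 50% and 29% in Canton S (3R, 16819460 to 16819575). Its nascent levels were 56%, 56% and 29% in set 1 and 53%, 55% and 29% in set 2, within 6 points of Canton S at each site. The sodium/hydrogen exchanger gene Nhe3 had 47% in yw and 30% in Canton S (2L, 6682191), with 27% in each nascent set. Atpalpha, the catalytic subunit of the sodium pump, had 29% in yw and 26% in Canton S at both of its sites, and Nckx30C had 85% in yw and 90% in Canton S at its second site.

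Lists for other head cell types and functions held few sites. The photoreceptor list held oc and Cpn, given above, 1 higher and 1 lower in yw. The muscle list held 4 sites: bt was higher in yw, while Unc-89 (73% in yw, 88% in Canton S) and both sites of Rya-r44F (85% and 38% in yw, 97% and 39% in Canton S) were lower. Of 9 circadian clock genes only timeless (tim), which encodes the light-sensitive partner of period, had a site. It had 39% in yw and 20% in Canton S (2L, 3503636), with nascent levels of 32% and 28%, and the mRNA pools were taken at different times of day. Of the second messenger genes, PI4KIIIalpha had 68% in yw and 63% in Canton S, beside Pde1c. The glia and fat body lists, with 6 genes each, held 0 sites. Levels of expression are not in the table, so the make-up of the head samples was not checked against markers.

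Other genes with 4 or more sites fell on either side. CG18437, named unc80 in RefSeq, encodes a subunit of the sodium leak channel complex and was higher in yw at all 6 sites, by 1 to 19 points. CG42492 (OtopLa), of the otopetrin proton channel family, had 4 of 5 sites higher, all within 9 points. The immunoglobulin superfamily gene tutl had 3 of 4 sites higher, by at most 5 points, pyd had 4 of 6 higher and CG10077 had 4 of 6 higher. CG33205 had 2 of 5 higher, within 9 points. CG42540 had its one wide site at -40 points, while its other sites had differences of -6, 5 and -6 points, one of them only 24 bases away. Over the 20 genes with 4 or more sites, which hold 110 sites, 14 had a median above 0 and 6 below it, and 15 held a site over 10 points apart. Of the 110 sites, 23 were over 10 points higher in yw and 4 lower, against 28.0% and 6.23% of all sites. The 79 genes with 1 site had a wider spread, with a standard deviation of the difference of 16.6 points against 10.8 points for sites of genes with 2 or more, and their nascent sets were also further apart, at 8.48 points against 4.84 points.

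In most genes with 2 or more sites, the sites did not all share a direction. Over all sites 63.0% were higher in yw, and a gene with more sites has more room for both directions. Of 49 genes with 2 or more sites, 14 had every site higher in yw, 2 had every site lower and 33 had sites of both directions or equal levels. Among the 30 genes with 3 or more sites, Calx, DopEcR, CG18437 and endoA were higher at every site, and 0 genes were lower at every site. DopEcR, a receptor for dopamine and ecdysteroids, had 71%, 71% and 40% in yw against 56%, 60% and 27% in Canton S. Within genes, the standard deviation of the difference was 10.1 points, against 10.8 points over the same 178 sites with genes ignored. In 3 genes, qvr, stj and unc-13, the same gene held a site over 10 points higher and one over 10 points lower in yw.

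Pairs of sites close together in position had more similar strain differences than pairs further apart. Among 91 pairs of sites of a gene within 100 bases, in 35 genes, the median gap between the pair's strain differences was 5 points, and the signs were the same in 53 pairs and opposite in 27. Among 233 pairs further apart, in 37 genes, the median gap was 11 points, with 106 pairs of the same sign and 110 opposite. A site can enter several pairs, genes with many sites give many pairs, and near and far pairs come from different mixes of genes. Close sites can also share reads, and the part of these in the contrast was not tested. In the 5 runs of 4 or more sites spaced by at most 100 bases, the highest site of the run was the same in both stocks, with further sites at 100% in yw in Ca-alpha1D. The lowest site was also the same in each run except that of qvr. The run in qvr covers 22 bases, where levels of 76%, 99%, 71% and 69% in yw stood against 68%, 93%, 61% and 64% in Canton S, each 5 to 10 points higher in yw. The run in NaCP60E covers 162 bases with differences of 16, 12, 18 and 10 points, while levels within it spanned 62 points in yw and 54 points in Canton S. In order of position the listed differences in Shab were 1, 1, -9, -7 and -2 points. Those in CG33205 were -4, -2, -1, 9 and 6 points. The listed values thus had both signs in each run, but the higher sites of Shab were only 1 point higher in yw. The lower sites of CG33205 were at most 4 points lower in yw. Regardless of direction, the nascent sets differed by a median of 4 points over all sites. Whether sites within either run differ in direction was not tested.

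**Figure D5:**
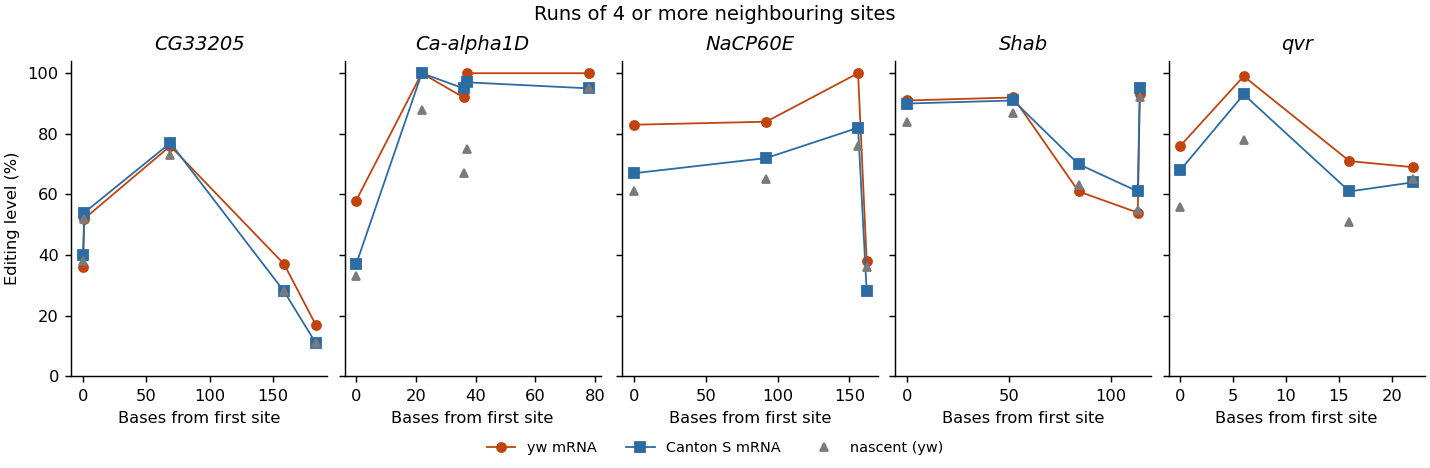
Editing level (%) in yw mRNA, Canton S mRNA and nascent RNA of yw at each site of the 5 runs of neighbouring sites, against distance in bases from the first site of the run. The mRNA lines peak at the same site in every run, with yw above Canton S throughout in NaCP60E and qvr.

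By chromosome arm, the median difference lay between 1.5 points (2L, 44 sites) and 8 points (chromosome 4, 7 sites). Sites higher in yw outnumbered lower ones on every arm, with 25 against 16 on 2L, 30 against 20 on 2R, 29 against 17 on 3L, 42 against 12 on 3R, 5 against 2 on chromosome 4 and 31 against 17 on X. On 2L, 10 sites were over 10 points higher and 0 lower. Every other arm held sites beyond the margin in both directions: 20 higher and 7 lower on 2R, 12 and 2 on 3L, 15 and 3 on 3R, 2 and 1 on chromosome 4, and 13 and 3 on X. Over all sites the shares were 28.0% higher and 6.23% lower.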

How the data were processed

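Head RNA editing was read from 1 deposited table of the series. The editing levels are deposited fractions, for which the authors pooled libraries per the file headers; they carry hundredths and were multiplied by 100 here. Genomic DNA coverage is a deposited read count. Per the submitters' processing notes, reads belong to build dm3, and TopHat and CASAVA 1.6 and 1.8 are named for some libraries. The method that called edits is not stated in the labels or headers. Each mRNA library was selected on oligo-dT per the labels' protocols. No mRNA library has a level of its own, and the depth behind a level is unknown, so no intervals were given. Differences are yw minus Canton S in percentage points; only counts, medians, standard deviations and correlations across sites were computed, with no test. The SD of a level is the square root of the mean squared difference divided by 2. Gene entries were matched to RefSeq Release 6 names, 124 of 128; the 4 others join overlapping genes. Named sites are the 12 with the greatest excess in each direction, the 5 highest in each pool (with the sites tied at that level added after their values were seen), the 5 lowest in Canton S, up to 5 equal at mid-range, genes with 4 or more sites, every site where a list has at most 4 edited genes, and for longer lists the 2 genes richest in sites. The genes ssx, gfA, Rdl and DopEcR and further sites of stj, unc-13 and Mhcl were named after their values were seen. Members and lists were chosen with earlier results of these data known. The counting was tested on simulated data. Python 3.11.15, numpy 2.4.6, pandas 2.3.3, scipy 1.17.1 and matplotlib 3.10.9 were used.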

Additional observations from a re-analysis of the deposited data

How the results depend on the processing

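Of 71 values under other settings, 51 counted as unchanged, 20 moved and 0 changed sign. Counts and the SD of a level have no sign that could change. Counts were allowed to move by 1.5 times, the median within 1.88 to 6.12 points, the share higher within 56.8% to 69.0%, r within 0.801 to 0.874 and the SD of a level within 8.94 to 10.6 points. With 1 value for each of the 128 gene entries, 37 entries were over 10 points higher in yw and 10 lower, r was 0.756, rho 0.748 and the SD of a level 10.8 points. The median difference on the logit scale, 0.206, is in another unit and was compared by its sign alone. Without entries of 5 or more sites (175 sites left), r was 0.779, rho 0.778 and the SD 10.6 points. At the 121 sites with a nascent level of 50% or more, the median difference was 1 point, 54.5% were higher in yw, 25 sites were over 10 points higher and 9 lower, r was 0.687, rho 0.732 and the SD 8.13 points. These subsets hold fewer sites. A threshold of 5 points gave 114 higher and 48 lower, and 20 points gave 22 and 5. A log2 ratio beyond 0.5, with 1% added to each level, gave 37 higher and 11 lower. The limit of under 20% in ADAR0 males removed 0 sites, so its values, counted among the 51, could not move. No paired analysis was possible because the mRNA columns pool their libraries and carry no replicate numbers. Leaving out single libraries was not possible for the same reason. No count or interval bounds an mRNA level, so small differences at single sites cannot be separated from sampling of reads.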

Other observations

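Genes of the sodium leak channel, which sets the resting potential of neurons, held sites in 3 entries; they were chosen after their values were seen. The pore gene na had 100% in yw and 76% in Canton S at X position 14166125, and 82% in yw and 89% in Canton S 4 bases away, with nascent levels of 70% to 78% over both sites. CG18437 (unc80), an accessory subunit, was higher in yw at all 6 sites. The gene unc79, its partner subunit, had 20% in yw and 30% in Canton S at its site, where the nascent sets had 25% and 9%. The listed values thus did not share a direction across the members of the complex. The unc79 difference, -10 points, was not beyond the margin, and the nascent sets lay 16 points apart at that site.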
